A study of Mus musculus with 13 samples.

Results

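The 10 genes described here encode the steps by which a cell builds fatty acids from citrate, desaturates them and joins them into triglyceride. They are Acly, Acaca, Acacb, Fasn, Me1, Elovl6, Scd1, Scd2, Dgat2 and Srebf1. They were taken by symbol from the deposited table of read counts, through each Ensembl identifier's GRCm38 annotation. All 10 were present among 49315 gene identifiers, and all 10 were among the 16496 genes with enough reads to be tested. The data are RNA sequencing of 13 skeletal muscle samples from mice, with selection of polyA RNA. KO mice carried a systemic deletion of the miR-181a2b2 microRNA locus (miR-181a2b2-/-), and flox mice were homozygous for the floxed, undeleted locus (miR-181a2b2flox/flox, named WT in the sample titles). The groups were KO on a diet labelled HFSC (n = 3), flox on HFSC (n = 4), KO on chow (n = 3) and flox on chow (n = 3). The labels do not spell out HFSC, give no age, sex, muscle or strain, and mention hindlimb ischemia for the study without saying which limb was taken or when.

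De novo lipogenesis starts when ATP citrate lyase (Acly) cleaves cytosolic citrate to acetyl-CoA. Acetyl-CoA carboxylase turns it into malonyl-CoA, and fatty acid synthase (Fasn) builds palmitate from that, using NADPH that malic enzyme (Me1) helps to supply. Elovl6 lengthens palmitate, the stearoyl-CoA desaturases Scd1 and Scd2 put a double bond into it, Dgat2 makes the last bond of triglyceride, and the transcription factor SREBP-1, from Srebf1, switches many of these genes on. Muscle makes little fat by this route. There the carboxylase of the mitochondrial surface, Acacb, is best known for malonyl-CoA that restrains fatty acid oxidation through carnitine palmitoyltransferase, and adipocytes lying between the fibres are rich in the synthetic enzymes.

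The deleted locus encodes the microRNAs miR-181a and miR-181b, and their 5p strands are shown because a shared seed sets which 3′ UTR sites can pair with them. In the RefSeq sequences below, from GRCm38.p6 and both on the plus strand, the capitals mark the seed, bases 2 to 8 from the 5′ end. The miR-181a-5p arm lies at chr2:38852741-38852763 and the miR-181b-5p arm at chr2:38853845-38853868.
miR-181a-5p: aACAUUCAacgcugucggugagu
miR-181b-5p: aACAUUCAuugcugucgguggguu
Both arms carry the seed ACAUUCA, so their 8-base site is the same, TGAATGTA. Among the 10 genes, this site was present in the longest annotated 3′ UTR of Me1 and of Scd1, once each. In the other 8, neither an 8-base seed site nor a seed site a single base shorter was found. Sites shorter than that were not searched. For comparison, 5.28% of 20989 genes with a 3′ UTR held an 8-base site and 21.0% held a site of either length. The 30 bases around each match are printed with the site in capitals, on the minus strand of GRCm38. The Me1 site covers chr9:86581416-86581423 and the Scd1 site chr19:44395428-44395435.
Me1: gtagttgtaaaTGAATGTAtttacctatgc
Scd1: cagtttccagaTGAATGTActaatagcttt
A match is a description of the sequence, and pairing at these sites was not measured. The levels of the mature microRNAs were not measured either, and other loci that may encode the same sequences were not examined. How much of either microRNA remained in KO muscle is therefore not known. In the edgeR fit of all 13 libraries, neither Me1 nor Scd1 was called higher in KO on either diet. Me1 was called higher in KO on chow by limma voom with quality weights, and by edgeR when chow flox replicate 4 was left out. The same voom fit called Scd1 lower in KO on chow, so the 2 genes with a site went in opposite directions there.

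Each library held between 20830943 and 45710227 counts, so a count of 0 in a library allows at most 3 counts, or 0.0656 to 0.144 CPM. CPM are counts put on one scale of library size, and this limit covers counting error alone. The libraries showed the labelled tissue: 10 markers of skeletal muscle fibres summed to between 85130 and 193589 CPM, and 6 hepatocyte markers to at most 0.259 CPM. White adipose tissue is named in the extraction protocol of the labels, although skeletal muscle is the source given for each sample. The deletion itself could not be checked, because the precursor genes Mir181a-2 and Mir181b-2 had 4 and 0 counts over all libraries and polyA-selected libraries rarely hold such short RNA. The labels list separate samples without naming animals; the p-values therefore reflect how far these samples differ, part of which may be technical.

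Levels were set side by side per length of exon, on the scale of CPM per kb after trimmed mean of M values (TMM) scaling. Me1, Acacb and Scd1 stood highest, with medians over the 13 libraries of 38.7, 34.1 and 30.7 CPM per kb. Their ranges overlapped widely, from 21.8 to 103 for Me1, from 25.6 to 54.3 for Acacb and from 19.3 to 80.9 CPM per kb for Scd1, so the order of these neighbours is not set by the data. Dgat2 followed with a median of 15.4 CPM per kb, then Srebf1 with 8.88, Scd2 with 7.49 and Acly with 4.65. Fasn had 3.18 CPM per kb and Acaca, the cytosolic carboxylase, 1.95. Elovl6 was lowest, with a median of 0.284 CPM per kb and only 20 to 100 counts per library, so its values are the least precise. Thus the carboxylase tied to oxidation control, Acacb, exceeded the synthetic one, Acaca, in every library, by 12.8 to 31.6 times per kb, and Scd1 exceeded Scd2 in every library.

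**Figure D1:**
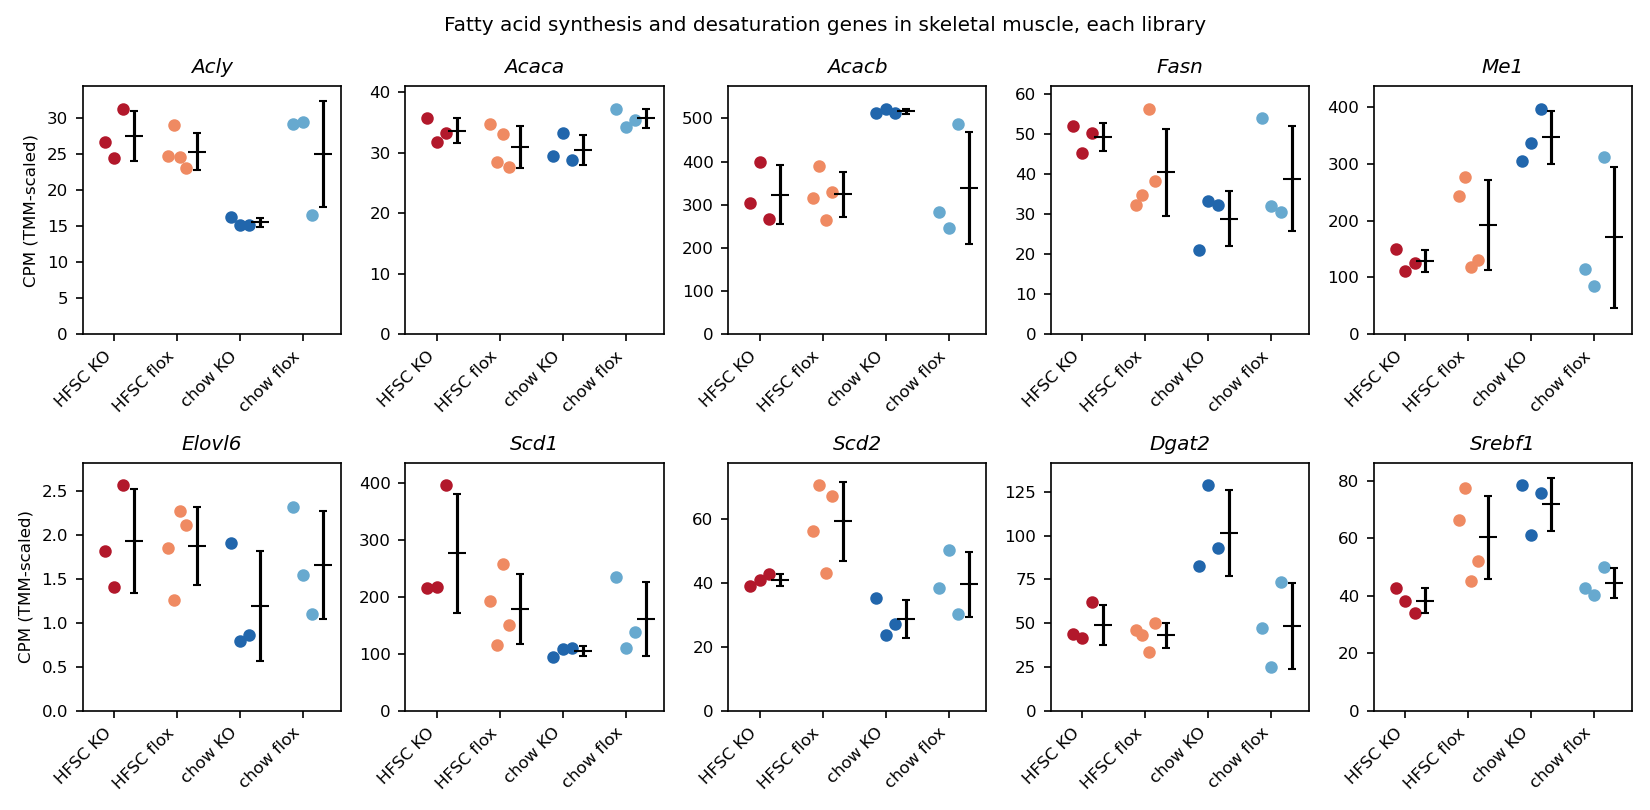
Level of each of the 10 genes in each library, in TMM-scaled CPM on linear axes that start at 0, with 3 points for HFSC KO, 4 for HFSC flox, 3 for chow KO and 3 for chow flox; black bars show mean ± SD. The chow KO points are the lowest for Acly (15.1 to 16.2 CPM) and lie above all HFSC KO points for Acacb, Srebf1, Dgat2 and Me1.

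The comparison of HFSC with chow in KO mice asks how the diet alters the pathway when the locus is absent, and here the 10 genes split. Acly, Fasn and Scd1, which make acetyl-CoA, palmitate and monounsaturated fatty acids, rose by 1.77-fold, 1.71-fold and 2.64-fold on HFSC. Srebf1, Dgat2 and Me1, their regulator, the triglyceride enzyme and the malic enzyme, fell to 0.532, 0.483 and 0.371 of their chow level. So 6 of 10 genes were called by edgeR at an adjusted p under 0.05, 3 higher and 3 lower, where 25.5% of all tested genes were called, 14.9% higher and 10.6% lower. The 2 groups did not overlap for 8 of the 10 genes, 4 higher and 4 lower, against 50.6% of all tested genes, 26.8% higher and 23.8% lower. The median log2 fold change was 0.33 over the 10 genes and 0.023 over all tested genes.

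Acly had 26.7, 24.5 and 31.3 CPM in HFSC KO, against 16.2, 15.1 and 15.1 CPM in chow KO. Every HFSC KO library was above every chow KO library, and the chow KO libraries lay close together. The log2 fold change was 0.83 ± 0.19 (SE; edgeR adjusted p = 0.0103). Fasn had 52.1, 45.4 and 50.3 CPM in HFSC KO, against 21.0, 33.3 and 32.3 CPM in chow KO. The groups again stood apart, with a single low library among the chow KO samples. Its log2 fold change was 0.77 ± 0.25 (edgeR adjusted p = 0.0425). Acaca, which supplies Fasn with malonyl-CoA, had 35.8, 31.8 and 33.3 CPM in HFSC KO, against 29.4, 33.3 and 28.7 CPM in chow KO. These groups overlapped, and the log2 difference of 0.14 ± 0.11 did not pass the test (edgeR adjusted p = 0.341). Acacb had 303, 399 and 267 CPM in HFSC KO, against 512, 523 and 513 CPM in chow KO. Its chow KO libraries were nearly equal and all higher than those on HFSC, but the log2 difference of -0.67 ± 0.24 missed the threshold (edgeR adjusted p = 0.0537). Acacb was called lower in 6 of 7 alternative ways of processing, and in 1 of the 6 fits that left out a KO library. Me1 had 149, 111 and 125 CPM in HFSC KO, against 305, 337 and 397 CPM in chow KO. The lowest chow KO library stood far above the highest on HFSC, with a log2 fold change of -1.43 ± 0.44 (edgeR adjusted p = 0.032).

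Among the enzymes that lengthen and desaturate palmitate, Scd1 had 216, 216 and 396 CPM in HFSC KO, against 94.5, 109 and 111 CPM in chow KO. All HFSC KO libraries were higher, and replicate 4 stood well above the other two. The log2 fold change was 1.40 ± 0.34 (edgeR adjusted p = 0.0131). Scd2, the desaturase isoform prominent in brain and in developing tissue, had 39.0, 40.9 and 42.8 CPM in HFSC KO, against 35.3, 23.8 and 27.1 CPM in chow KO. The groups did not overlap, yet the log2 difference of 0.51 ± 0.21 did not pass (edgeR adjusted p = 0.0892). Elovl6 had 1.83, 1.41 and 2.57 CPM in HFSC KO, against 1.91, 0.799 and 0.862 CPM in chow KO. These overlapped, with a log2 difference of 0.68 ± 0.39 (edgeR adjusted p = 0.205). Dgat2 had 43.7, 41.2 and 61.8 CPM in HFSC KO, against 82.3, 129 and 93.0 CPM in chow KO. All chow KO libraries were higher, and the log2 fold change was -1.05 ± 0.32 (edgeR adjusted p = 0.0313). Srebf1 had 42.6, 38.0 and 33.9 CPM in HFSC KO, against 78.5, 61.1 and 75.7 CPM in chow KO. The groups stood clearly apart, and the log2 fold change was -0.91 ± 0.18 (edgeR adjusted p = 0.00673), the smallest p of the 10. Srebf1 counts sum the transcripts of SREBP-1a and SREBP-1c, and 109 of its exon bases are shared with Rai1 on the opposite strand.

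Srebf1 was the only one of the 6 called genes that kept its call without any single KO library, with adjusted p from 0.0145 to 0.0322. Acly and Scd1 lost it only without HFSC KO replicate 4 (log2 fold change 0.70 and adjusted p = 0.0523 for Acly, 1.02 and 0.0624 for Scd1). Dgat2 lost it without chow KO replicate 2 or 3 or HFSC KO replicate 2 or 3, with adjusted p from 0.0726 to 0.113 in those fits. Fasn and Me1 lost it whichever of the 6 libraries was left out, with adjusted p from 0.0673 to 0.136 and from 0.0545 to 0.101. Their log2 fold changes in those fits kept their sign, at 0.58 to 0.89 for Fasn and -1.55 to -1.32 for Me1.

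**Figure D2:**
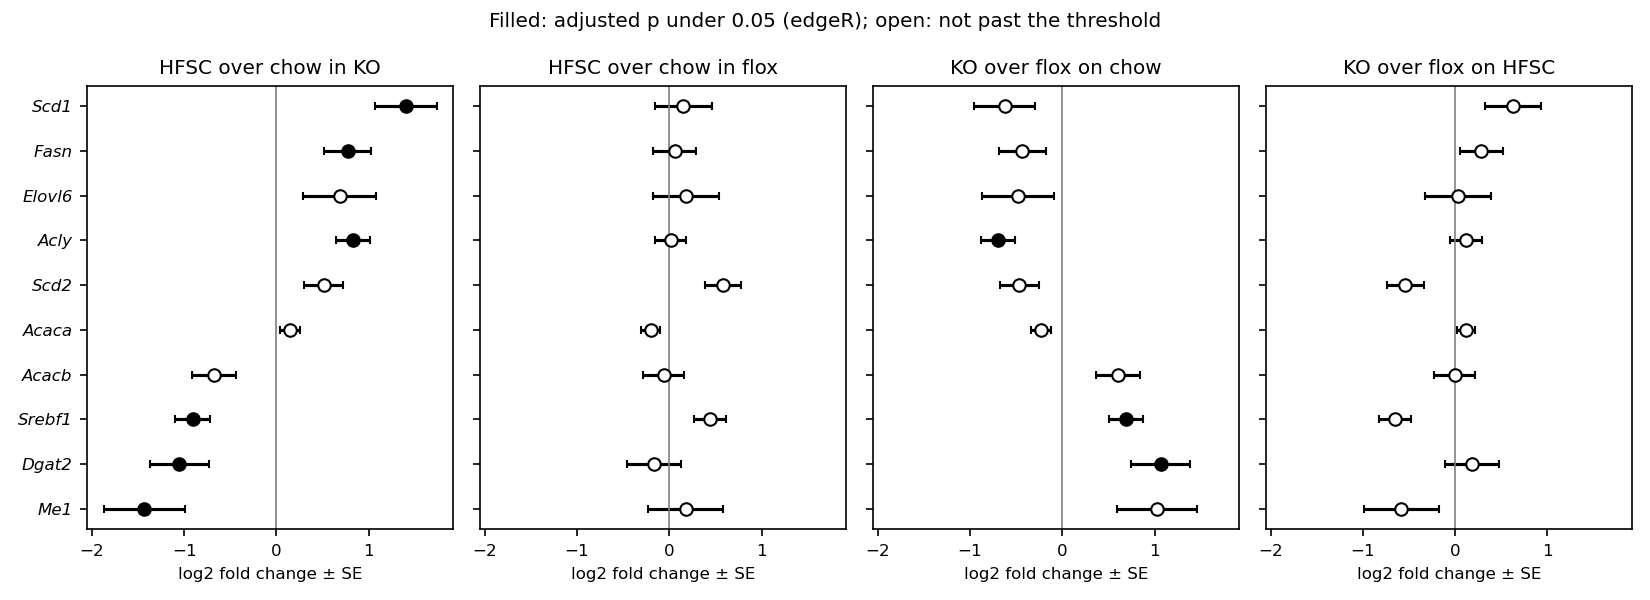
Log2 fold change ± SE of each gene in 4 comparisons, with filled points where the edgeR adjusted p is under 0.05. Filled points are present in the comparison of HFSC with chow in KO (6 genes) and of KO with flox on chow (3 genes), and absent from the other two.

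The promoters of Acly and Fasn, which rose together, and of Srebf1 and Me1, which fell together, are printed because the 4 genes moved in opposite directions in the same libraries. RefSeq windows (GRCm38.p6, 250 bases before to 50 after an annotated start) were found for 7 of the 10 genes; Scd1, Scd2 and Dgat2 had no entry. All 4 genes lie on the minus strand, and each window is written 5′ to 3′ along the gene. Capitals mark matches on either strand to the CCAAT box CCAAT, the GC box GGGCGG and the antioxidant response element TGACNNNGC; neighbouring matches run together where they touch or overlap. Srebf1 has 3 windows and Me1 has 2, and one of each is shown. The windows are chr11:100527951-100528250 for Acly, chr11:120824498-120824797 for Fasn, chr11:60210422-60210721 for Srebf1 and chr9:86695865-86696164 for Me1.
Acly: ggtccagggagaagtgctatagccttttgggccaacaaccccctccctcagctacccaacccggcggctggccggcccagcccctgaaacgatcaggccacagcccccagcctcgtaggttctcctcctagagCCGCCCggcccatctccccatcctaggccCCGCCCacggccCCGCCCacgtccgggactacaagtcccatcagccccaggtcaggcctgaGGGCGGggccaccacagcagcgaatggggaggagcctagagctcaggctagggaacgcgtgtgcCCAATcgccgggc
Fasn: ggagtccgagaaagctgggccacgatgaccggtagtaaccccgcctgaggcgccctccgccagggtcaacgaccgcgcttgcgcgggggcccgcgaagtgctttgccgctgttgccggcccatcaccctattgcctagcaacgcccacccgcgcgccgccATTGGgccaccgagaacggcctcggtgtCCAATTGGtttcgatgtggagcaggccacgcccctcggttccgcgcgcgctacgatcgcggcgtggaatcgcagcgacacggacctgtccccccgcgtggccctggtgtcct
Srebf1: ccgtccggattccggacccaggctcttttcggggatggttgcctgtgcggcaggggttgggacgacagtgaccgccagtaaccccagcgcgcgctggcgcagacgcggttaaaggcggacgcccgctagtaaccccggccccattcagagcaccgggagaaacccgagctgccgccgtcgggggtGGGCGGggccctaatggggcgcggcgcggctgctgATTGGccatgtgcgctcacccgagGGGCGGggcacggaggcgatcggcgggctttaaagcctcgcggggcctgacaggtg
Me1: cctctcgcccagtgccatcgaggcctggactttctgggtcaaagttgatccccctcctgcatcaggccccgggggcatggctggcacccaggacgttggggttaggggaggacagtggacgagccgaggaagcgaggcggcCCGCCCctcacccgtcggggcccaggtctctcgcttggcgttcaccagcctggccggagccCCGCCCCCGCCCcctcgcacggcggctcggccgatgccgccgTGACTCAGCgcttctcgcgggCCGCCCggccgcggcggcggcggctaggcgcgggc
In Fasn the window held 3 CCAAT boxes, at positions -90, -62 and -59 from the start, and no GC box. Acly held 4 GC boxes and 1 CCAAT box, the Srebf1 window shown 2 GC boxes and 1 CCAAT box, and the Me1 window shown 4 GC boxes. The windows not shown differed from these. That of Me1 held 1 CCAAT box and no GC box or TGACNNNGC match. For Srebf1, the window at chr11:60220578-60220877 held 3 GC boxes and no CCAAT box. The window at chr11:60222532-60222831 held 1 CCAAT box and no GC box. A single TGACNNNGC match, TGACTCAGC, lay at -6 in Me1, a gene known in mouse as a target of NRF2. No exact match to TCACNCCAC, one form of the sterol regulatory element that SREBP-1 binds, was present in any of the 10 windows found for the 7 genes. The same held for the E-box form CACGTG. Sites that depart from these letters were not searched, so the windows may still hold such elements. Among all 32851 windows of the same length, 37.4% held CCAAT, 35.7% GGGCGG, 12.4% TGACNNNGC, 7.15% CACGTG and 1.24% TCACNCCAC. A match or its lack says nothing of binding.

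In flox mice the same diet comparison gave no call for any of the 10 genes, and for none did the groups fail to overlap. Here 0.418% of all tested genes were called, and 9.86% did not overlap between the groups, 4.26% higher and 5.6% lower; at an unadjusted p under 0.05, 2105 of all tested genes passed in the edgeR fit, Scd2 and Srebf1 among them. No member was called by DESeq2 either, whereas limma voom with quality weights called 3, Scd2 and Srebf1 higher and Acaca lower. The median log2 fold change over the 10 genes was 0.10.

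Srebf1 had 66.4, 77.3, 45.2 and 52.0 CPM in HFSC flox, against 42.8, 40.3 and 50.04 CPM in chow flox. HFSC flox replicates 1 and 2 were above all chow flox libraries, while replicates 3 and 4 lay close to the highest of them. The log2 difference was 0.44 ± 0.17 (edgeR adjusted p = 0.313), opposite in sign to that in KO. Scd2 had 56.4, 70.8, 43.3 and 67.3 CPM in HFSC flox, against 38.4, 50.4 and 30.2 CPM in chow flox. All but the third replicate on HFSC were above every chow library, with a log2 difference of 0.58 ± 0.20 (edgeR adjusted p = 0.243). Scd1 had 193, 115, 257 and 150.1 CPM in HFSC flox, against 235, 111 and 138 CPM in chow flox. The groups were interleaved, with a log2 difference of 0.15 ± 0.31 (edgeR adjusted p = 0.888).

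Acly had 24.6, 29.1, 24.6 and 23.0 CPM in HFSC flox, against 29.1, 29.4 and 16.5 CPM in chow flox. Fasn had 32.3, 34.8, 56.4 and 38.2 CPM in HFSC flox, against 54.1, 31.9 and 30.6 CPM in chow flox. For both the groups overlapped, with log2 differences of 0.013 ± 0.17 for Acly and 0.056 ± 0.24 for Fasn. Me1 had 243, 278, 118 and 131 CPM in HFSC flox, against 114, 84.0 and 312 CPM in chow flox. Each group split into high and low libraries, and among the chow flox samples replicate 4 alone was as high as the chow KO libraries. Acacb had 315, 390.2, 264 and 329 CPM in HFSC flox, against 284, 246 and 487 CPM in chow flox, again with replicate 4 highest. Dgat2 had 46.0, 43.0, 33.2 and 50.1 CPM in HFSC flox, against 47.4, 24.6 and 73.5 CPM in chow flox, where the same replicate led. Elovl6 ran from 1.27 to 2.28 CPM in HFSC flox and from 1.11 to 2.33 CPM in chow flox, and Acaca from 27.6 to 34.6 CPM and from 34.2 to 37.3 CPM. The log2 differences of these 5 genes ran from -0.20 for Acaca to 0.18 for Elovl6, with edgeR adjusted p from 0.428 to 0.937.

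The comparison of KO with flox on chow asks what loss of the locus does on the standard diet. Dgat2 and Srebf1 were higher in KO by 2.09-fold and 1.62-fold, and Acly fell to 0.618 of its flox level. These 3 of 10 genes were called, 2 higher and 1 lower, where 11.5% of all tested genes were called, 1.38% higher and 10.1% lower. When libraries were scaled by their totals in place of TMM, 1 was called higher (Dgat2) and 2 lower (Acly and Acaca). That scaling shifted all genes, at the median, by -0.34 on the log2 scale in this comparison, by 0.18 for the diet in KO and by -0.15 for the diet in flox. The groups did not overlap for 6 genes, 3 higher and 3 lower, against 24.8% of all tested genes, 10.9% higher and 13.9% lower. The median log2 fold change over the 10 genes was -0.33.

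In chow KO, Srebf1 averaged 71.7 ± 9.30 CPM, against 44.4 ± 5.06 CPM in chow flox (SD, n = 3 each), and no KO library was as low as the highest flox library. The log2 fold change was 0.69 ± 0.18 (SE; edgeR adjusted p = 0.033). Dgat2 averaged 101 ± 24.4 CPM in chow KO and 48.5 ± 24.4 CPM in chow flox (SD, n = 3 each), with chow flox replicate 4 nearest to the KO libraries. Its log2 fold change was 1.07 ± 0.32 (edgeR adjusted p = 0.0482). Acly averaged 15.5 ± 0.648 CPM in chow KO and 25.0 ± 7.35 CPM in chow flox (SD, n = 3 each), and the lowest flox library stood just above the highest KO library. The log2 fold change was -0.69 ± 0.19 (edgeR adjusted p = 0.0346). Acacb, at 516 ± 5.85 CPM in chow KO and 339 ± 129 CPM in chow flox, was higher in every KO library but was not called, with a log2 difference of 0.61 ± 0.24 (edgeR adjusted p = 0.102). Me1 had a log2 difference of 1.03 ± 0.43 (edgeR adjusted p = 0.121), its means being 346 ± 46.7 CPM in chow KO and 170.1 ± 124 CPM in chow flox, and its groups overlapped through flox replicate 4. Scd1 had a log2 difference of -0.62 ± 0.33 (edgeR adjusted p = 0.198), and its highest KO library, at 110.5 CPM, lay only just under the lowest flox library, at 110.6 CPM.

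All 3 calls on chow were lost whichever of chow KO replicates 1, 2 and 3 or chow flox replicates 2 and 3 was left out, with edgeR adjusted p from 0.0618 to 0.168. Without chow flox replicate 4, 6 genes were called: Acacb (0.96), Srebf1 (0.79), Dgat2 (1.5) and Me1 (1.81) higher, and Scd2 (-0.62) and Acly (-0.91) lower on the log2 scale. That library also had less of the fibroblast and macrophage markers than the other flox libraries: 12 fibroblast and matrix markers summed to 1427 CPM in it, to 4106 and 7169 CPM in the other chow flox libraries, and to 457 to 712 CPM in chow KO. The 10 macrophage markers summed to 105 CPM in it, to 389 and 1044 CPM in the other chow flox libraries, and to 38.1 to 75.3 CPM in chow KO. The 10 endothelial markers summed to 304 CPM in it and to 467 and 514 CPM in the other chow flox libraries. In chow KO they summed to 284 to 311 CPM. Skeletal muscle fibre markers were higher in it: the 10 summed to 179722 CPM, against 109028 and 85130 CPM in the other chow flox libraries. In chow KO the fibre markers summed to 146575 to 193589 CPM. Markers of other cells were not all lower there. The 10 Schwann cell and myelin markers summed to 182 CPM in it and to 163 and 123 CPM in the other chow flox libraries. The part of these markers in the result was not tested. The calls were also lost when only the 2 chow groups were fitted.

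On HFSC no member was called between KO and flox by edgeR, where 0.0182% of all tested genes were called, and 1721 of all genes passed at an unadjusted p under 0.05. DESeq2 called 1 member, Srebf1, lower in KO (adjusted p = 0.0454); over all alternatives its adjusted p ran from 0.0454 to 0.726. The groups did not overlap for 2 members, Srebf1 and Scd2, both lower in KO, against 12.7% of all tested genes, 7.4% higher and 5.31% lower. Srebf1 averaged 38.2 ± 4.35 CPM in HFSC KO (SD, n = 3) and 60.2 ± 14.4 CPM in HFSC flox (SD, n = 4), a log2 difference of -0.66 ± 0.17 (SE; edgeR adjusted p = 0.24). Scd2 averaged 40.9 ± 1.91 CPM in HFSC KO and 59.4 ± 12.4 CPM in HFSC flox, a log2 difference of -0.54 ± 0.20 (edgeR adjusted p = 0.381). Scd1 averaged 275.9 ± 104 CPM in HFSC KO and 179 ± 61.3 CPM in HFSC flox, a log2 difference of 0.63 ± 0.31 (edgeR adjusted p = 0.506). Acacb and Acly differed by -0.0052 ± 0.22 and 0.12 ± 0.17 on the same scale.

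The interaction term asks whether the diet difference itself differed between KO and flox, and no member passed it in the edgeR fit, nor did any of all tested genes (0%), with 4811 of all genes under an unadjusted p of 0.05. DESeq2 called 3 members (Acly, Srebf1 and Me1) and voom 9. The nearest was Srebf1, with an interaction of -1.35 ± 0.25 on the log2 scale (edgeR adjusted p = 0.0625), followed by Acly at 0.81 ± 0.25 (0.0875), Scd1 at 1.25 ± 0.45 (0.109) and Me1 at -1.61 ± 0.59 (0.113). Without chow flox replicate 4, 5 members were called, and their terms were 1.03 for Acly, -0.97 for Acacb, -1.45 for Srebf1, -1.31 for Dgat2 and -2.39 for Me1 on the log2 scale. Averaged over both genotypes, HFSC libraries had more Scd1 (log2 fold change 0.77 ± 0.23, edgeR adjusted p = 0.0398), Scd2 (0.55 ± 0.14, 0.0263) and Acly (0.42 ± 0.13, 0.0432), and edgeR called no member lower, where 15.1% of all genes were called, 8.98% higher and 6.17% lower. With the replicate block none of these 3 was called, and Dgat2 was called lower. Beside higher calls, DESeq2 called Dgat2 lower, and voom Acacb and Dgat2. The count in either direction was 0 with library totals and 0 without chow KO replicate 2, chow KO replicate 3, HFSC flox replicate 4 or HFSC KO replicate 4, and it was 1 without chow KO replicate 1, HFSC flox replicate 1 or HFSC flox replicate 3.

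**Figure D3:**
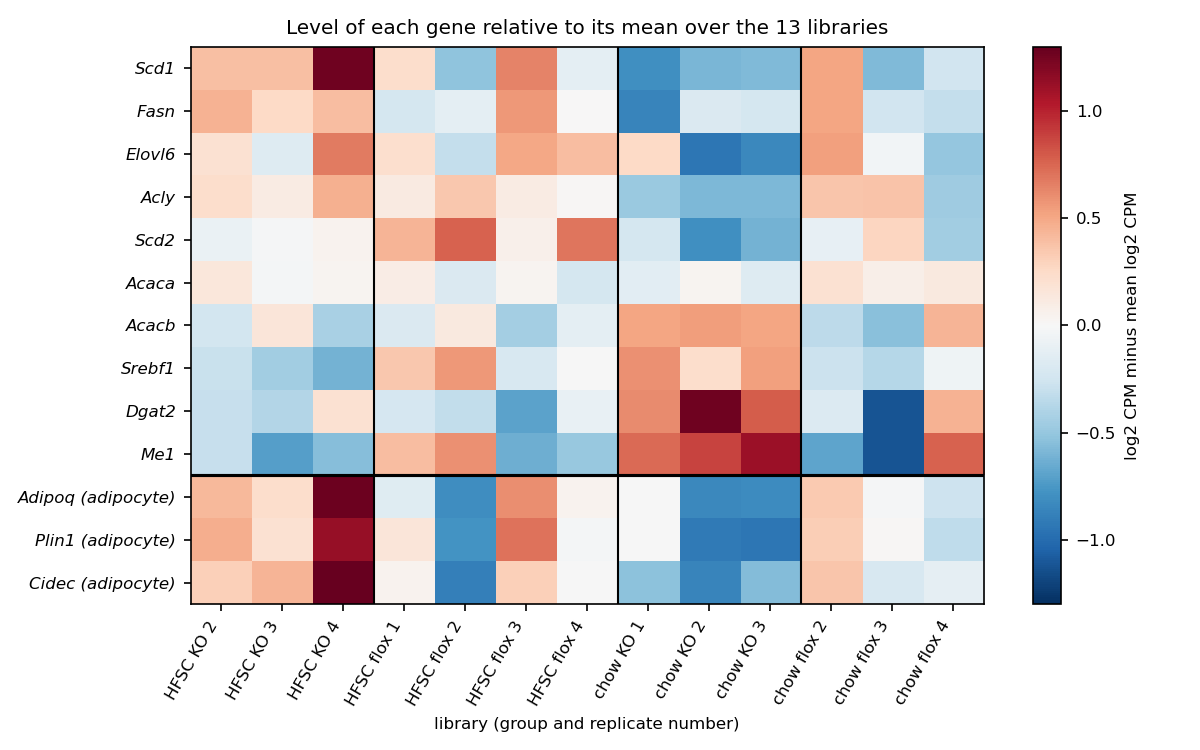
Log2 CPM of the 10 genes, minus each gene's mean over the 13 libraries, with 3 adipocyte markers below the line; columns are libraries, ordered HFSC KO, HFSC flox, chow KO, chow flox, and colour runs from blue (below the gene's mean) to red (above). Scd1 follows Adipoq, Plin1 and Cidec most visibly in HFSC KO 4, while Acacb, Dgat2 and Me1 are red in all chow KO libraries and in chow flox 4.

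Likeness between the 10 genes across libraries is described here by the root mean square (RMS) difference between their centred log2 CPM over the 13 libraries. Acacb and Srebf1 differed least, by 0.32, as did Scd2 and Acly, also by 0.32, and Fasn differed from Acly by 0.34 and from Scd1 by 0.35. Scd1 and Me1 were farthest apart, at 1.18. The desaturases Scd1 and Scd2 differed by 0.69. Acaca differed from Acacb by 0.46 and from Scd1 by 0.55. The measure also depends on how much each gene varies, so a smaller difference need not mean that genes moved together. About its own mean Acaca varied by 0.135, the least of the 10 genes, and Acacb by 0.387. Among 12145 genes averaging 1 CPM or more, the 5 most like Scd1 were Cidec (RMS difference 0.248), Cdo1, Crispld1, Chodl and Grap (0.279), while Scd1 itself varied about its mean by 0.598. Cidec encodes a coat protein of adipocyte lipid droplets, and it averaged 20.7 CPM in HFSC KO, 10.1 in HFSC flox, 6.77 in chow KO and 10.8 in chow flox. Those most like Fasn were Piga (0.175), Smco4, Hacd1, B9d2 and Apex2 (0.203), while Fasn varied about its own mean by 0.399. Hacd1, a dehydratase of very-long-chain fatty acid elongation that is abundant in muscle, averaged 77.2 CPM in HFSC KO, 65.3 in HFSC flox, 46.1 in chow KO and 54.2 in chow flox.

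Markers of other cells moved with some of these results. For HFSC over chow in KO, 14.9% of all tested genes were called higher and 10.6% lower. Of 16 tested white adipocyte markers, 8 were higher on HFSC than on chow in KO and 0 were lower, among them Fabp4 (log2 fold change 1.44), Aqp7 (1.43), Pck1 (2.39) and Cidec (1.61); their median was 1.18. None of the 16 was called on HFSC against chow in flox (median -0.064), nor in KO against flox on chow (-0.52) or on HFSC (0.56). Without Car3, which muscle fibres also express, the other 15 summed to 565 to 898 CPM in HFSC KO, 288 to 590.4 in HFSC flox, 255 to 331 in chow KO and 309 to 453 in chow flox. Adipoq, a hormone known as a product of adipocytes, was detected in every library, at 17.0, 14.8 and 30.7 CPM in HFSC KO, 11.4, 7.24, 19.3 and 13.1 in HFSC flox, 12.7, 7.11 and 7.20 in chow KO, and 16.03, 12.6 and 10.5 in chow flox. HFSC KO replicate 4 was highest for Adipoq and for Scd1, and the brown adipocyte gene Ucp1 had 1.82 CPM in it, against 0.131 CPM or less in each other library. Ucp1 was picked from 8 brown adipocyte markers after values were seen. Another of them, Elovl3, had 0 CPM in that library and at most 0.107 CPM in any. Of the 6 brown adipocyte markers tested, 1 was called higher on HFSC than on chow in KO and 0 lower. In bulk tissue a change in the number of cells of a type and a change in RNA per cell cannot be told apart. Per kb, Scd1 was 3.57, 4.11 and 3.65 times Adipoq in HFSC KO, 4.79, 4.47, 3.77 and 3.23 times in HFSC flox, 2.10, 4.32 and 4.34 times in chow KO, and 4.13, 2.48 and 3.71 times in chow flox. These ratios overlapped among all 4 groups, while the part of adipocyte RNA in the Scd1 difference was not tested.

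Other marker lists also differed in the comparisons within KO and on chow. Of all tested genes, 14.9% were called higher and 10.6% lower on HFSC in KO. On chow, 10.1% were called lower in KO, and by diet in flox 0.303% were called lower. All 12 fibroblast and matrix markers were higher on HFSC than on chow in KO (median log2 fold change 2.31), and all 12 were lower in KO than in flox on chow (median -2.28). Of 10 macrophage markers, 9 were higher on HFSC in KO (median 2.05) and all 10 were lower in KO on chow (median -2.93). Of 10 endothelial markers, 8 were higher on HFSC in KO and 3 lower in KO on chow. Slow fibre markers differed between the diet groups in both genotypes: all 8 were called lower on HFSC in KO (median -3.10) and 7 of 8 in flox. Their sum was 772 to 1272 CPM in HFSC KO, 819 to 2067 in HFSC flox, 8611 to 10163 in chow KO and 6898 to 8884 in chow flox. The labels name no muscle, so diet and the muscle or region sampled cannot be told apart in any comparison of HFSC with chow. The part of these cell types and of fibre type in the members' differences was not tested.

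**Figure D4:**
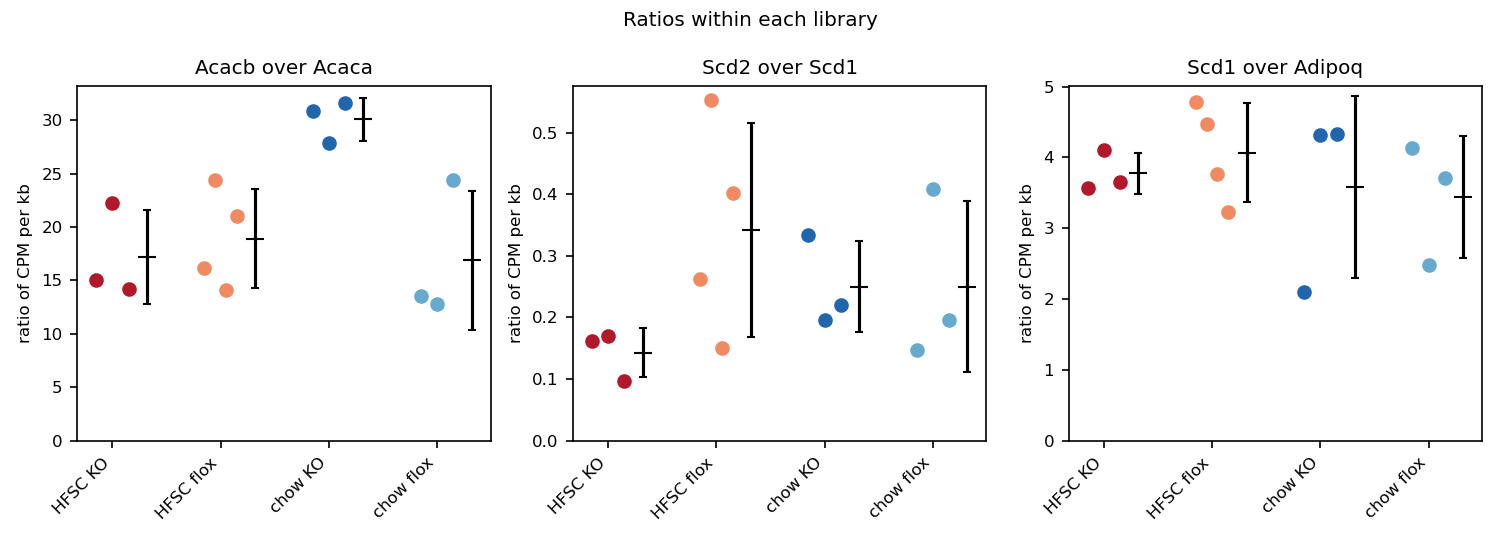
Ratios of level per kb within each library: Acacb over Acaca, Scd2 over Scd1 and Scd1 over Adipoq, on axes that start at 0, with each point a library and black bars the mean ± SD (n = 3 for HFSC KO, 4 for HFSC flox, 3 for chow KO and 3 for chow flox). The Acacb to Acaca ratio lies between 27.8 and 31.6 in chow KO and at most at 24.4 in all other libraries, and Scd1 over Adipoq overlaps among the groups.

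Ratios within a library need no scaling between libraries. Acacb over Acaca, per kb, was 15.04, 22.2 and 14.2 in HFSC KO, 16.1, 24.4, 14.1 and 21.1 in HFSC flox, 30.9, 27.8 and 31.6 in chow KO, and 13.5, 12.8 and 24.4 in chow flox. All chow KO libraries exceeded all 10 others. On the log2 scale the ratio differed by -0.84 between HFSC and chow in KO and by 0.90 between KO and flox on chow. The exact two-sided permutation p was 0.1 in each, which is the smallest that 3 against 3 libraries allow, and 0.229 after Benjamini-Hochberg adjustment over the 8 ratio comparisons made. Scd2 over Scd1 was 0.162, 0.170 and 0.0969 in HFSC KO, 0.262, 0.553, 0.151 and 0.401 in HFSC flox, 0.334, 0.196 and 0.220 in chow KO, and 0.147, 0.408 and 0.196 in chow flox. Its log2 difference between KO and flox on HFSC was -1.14 (exact permutation p = 0.114, adjusted p = 0.229), and the groups overlapped. Between HFSC and chow in KO it was -0.81 (exact permutation p = 0.1, adjusted p = 0.229), and those groups did not overlap.

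Genes that surround the 10 in the pathway were counted in lists of the same kind. For HFSC over chow in KO, 25.5% of all tested genes were called, 14.9% higher and 10.6% lower. Desaturases and elongases other than the members numbered 15 tested genes, of which 6 were higher and 2 lower on HFSC in KO, with a median log2 fold change of 0.74. Those higher included Elovl5, which extends polyunsaturated fatty acids (log2 fold change 1.40 ± 0.21, edgeR adjusted p = 0.00209). Hsd17b12 (0.89 ± 0.19) and Hacd1 (0.74 ± 0.16), a reductase and a dehydratase of the elongation cycle, were higher too. The 2 lower genes were Fads6 (-0.99 ± 0.25) and Tecr (-0.77 ± 0.24). Tecr averaged 144 CPM in HFSC KO and 247 CPM in chow KO. A list of 15 genes held enzymes and carriers for the supply of citrate, acetate and NADPH, with the lipogenic regulators Thrsp and Mid1ip1 added; 5 were higher and 1 lower. G6pdx, the entry enzyme of the pentose phosphate pathway and another source of NADPH, rose by 1.40 ± 0.30, and Idh1 rose by 0.65 ± 0.19. Me1 fell in these libraries while G6pdx and Idh1 rose. Me2, also on the list, rose by 0.74 ± 0.18, and its part in NADPH supply was not examined. Mid1ip1, an activator of acetyl-CoA carboxylase, fell by 0.91 on the log2 scale in KO. Its fall was not particular to KO: averaged over genotypes it was -0.93 ± 0.14 (edgeR adjusted p = 0.00217). In flox it was not called, but it ran from 27.2 to 34.4 CPM on HFSC and from 55.5 to 63.7 CPM on chow.

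Of 17 triglyceride and phospholipid assembly genes, 4 were higher and 4 lower on HFSC in KO. Gpam, the mitochondrial acyltransferase that starts glycerolipid synthesis, moved as Dgat2 did, at -0.75 ± 0.17, and Mogat2 (-2.97 ± 0.53, on 114 counts in all libraries) and Agpat1 (-1.04 ± 0.23) were also lower, whereas Lpin3, a phosphatidate phosphatase, was higher at 1.83 ± 0.24. Among 21 regulators of lipogenesis, 4 were higher and 2 lower, close to the 25.5% called among all tested genes. Pparg and Cebpa, the transcription factors of adipocyte identity, rose by 1.41 ± 0.27 and 1.42 ± 0.31, and Mbtps1, a protease that releases SREBP from its membrane, by 0.38 ± 0.097, while the thyroid hormone receptor gene Thrb was lower, at -0.48 ± 0.12. Srebf2, the sterol-regulated relative of Srebf1, rose by 0.76 ± 0.24 (edgeR adjusted p = 0.0386) in the same comparison in which Srebf1 fell. Mlxipl, which encodes the carbohydrate response factor ChREBP, did not pass, at -0.54 ± 0.21 (edgeR adjusted p = 0.0764). These 2 genes were chosen after their values were seen. Of 11 switches and kinases, 1 was higher (Cpt1a, 0.86 ± 0.20) and 3 lower, all subunits of the AMP-activated kinase that inhibits acetyl-CoA carboxylase: Prkab2 (-1.41 ± 0.33), Prkag3 (-0.76 ± 0.21) and Prkaa2 (-0.87 ± 0.25). In mitochondrial fatty acid synthesis 1 of 9 tested genes was called, Lipt2, lower.

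**Figure D5:**
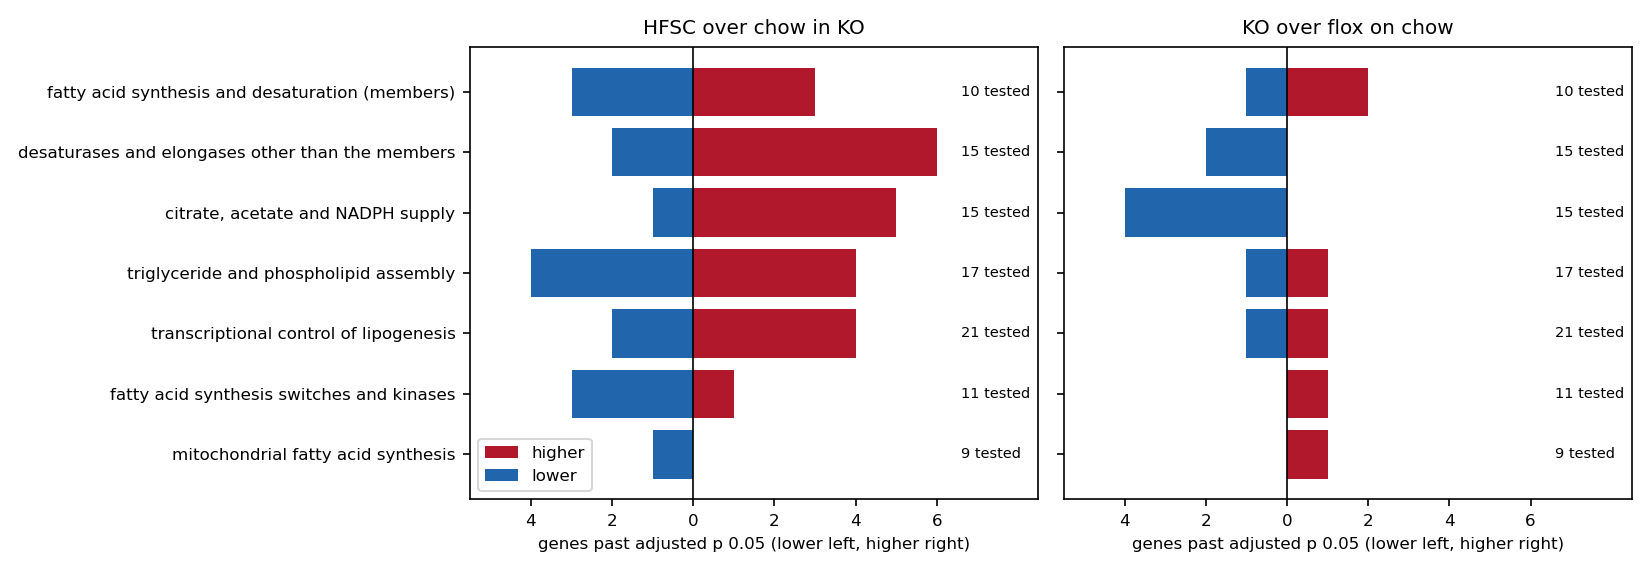
Number of genes called higher (red, right of 0) and lower (blue, left of 0) at an edgeR adjusted p under 0.05 in each pathway list, for HFSC over chow in KO and for KO over flox on chow; the number tested stands beside each bar. The 10 members split 3 and 3 by diet in KO, and the citrate, acetate and NADPH list has 4 lower and 0 higher genes in KO on chow.

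The same lists were counted for KO against flox on chow, where 11.5% of all tested genes were called, against 25.5% for HFSC over chow in KO. In the supply list 4 of 15 genes were lower and 0 higher: G6pdx (-1.43 ± 0.30), Me2 (-0.82 ± 0.18), Tkt (-0.84 ± 0.21) and Pgd (-0.99 ± 0.28), of which G6pdx, Tkt and Pgd belong to the pentose phosphate pathway. Gpam was higher in KO at 0.60 ± 0.17, as Dgat2 was, and Agpat4 lower at -1.42 ± 0.42. Nr1h3, the oxysterol receptor LXR alpha that activates Srebf1 transcription, was higher at 0.44 ± 0.13 (edgeR adjusted p = 0.0478), and Cebpa lower at -1.24 ± 0.30. Elovl5 (-0.88 ± 0.21) and Hacd4 (-1.23 ± 0.29) were the desaturase and elongase genes called, both lower. Mlycd, which breaks down malonyl-CoA, was higher at 0.45 ± 0.13. No gene of these 6 other pathway lists was called between KO and flox on HFSC, nor between HFSC and chow in flox. The comparisons on chow and within KO share the 3 chow KO libraries, so opposite signs in them are not separate evidence.

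Some counts may be shared with other genes, since the treatment of reads with several alignments is not given in the sources used here. Of all 50-base stretches in the exons of Acaca, 30.4% also occur in another annotated gene, mostly the pseudogene Gm5182, and of Me1 28.3%, mostly Gm7049; both pseudogenes had 0 counts in these libraries. The share was 4.56% for Scd1, mostly with Scd3, which had 88 counts in all against 73452 for Scd1. It was 3.97% for Scd2, 3.98% for Elovl6, 1.33% for Srebf1, and 0% for Fasn, Acacb, Dgat2 and Acly.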

How the data were processed

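The authors deposited raw read counts per Ensembl gene for 13 libraries. Per the submitters' processing notes, the tools were STAR 2.5.2b, Trimmomatic 0.36 and Subread 1.5.2 (featureCounts), and the build was GRCm38. No annotation release, strand setting or rule for multiply aligned reads is given in the sources used here. Symbols, coordinates and exon lengths came from GENCODE M21 (49056 of 49315 identifiers matched). Robust quasi-likelihood F tests were run in edgeR 4.0.16 under R 4.3.3, in 1 model of 4 group means over all 13 libraries, with TMM scaling. The edgeR filter on low counts kept 16496 genes, over all of which the p-values received Benjamini-Hochberg adjustment, with a threshold of 0.05. Each standard error is the log2 fold change divided by the square root of the F statistic, and CPM values use TMM library sizes. For RMS likeness, 2 was the prior count of log2 CPM. Seed sites were searched in the longest annotated 3′ UTR, and promoter windows and microRNAs came from RefSeq.

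Alternatives were relative log expression (RLE) size factors, library totals, DESeq2 1.42.0, limma 3.58.1 voom with quality weights, no low-count filter, only the groups compared, the replicate number as a block, and leaving out each library. The 10 genes and the gene lists were chosen with earlier results of these data known. The rule for other named genes was up to 4 called genes of each list with the smallest p in a comparison, and the 5 genes most like Scd1 and like Fasn. Srebf2, Mlxipl, Thrsp, Scd3, Scd4, Elovl3, Tecr, Ucp1, Adipoq and Plin1 fall outside it and were chosen after values were seen.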

Additional observations from a re-analysis of the deposited data

How the results depend on the processing

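For HFSC over chow in KO, 6 of the 10 genes were called, and the count was between 4 and 9 with RLE, library totals, DESeq2, voom, no filter or only the groups compared; with a replicate block it was 3 (Acly higher, Srebf1 and Dgat2 lower), and leaving out a library gave 2 to 4. For KO over flox on chow, 3 were called; voom called 10, only the groups compared 0, the replicate block 0, and leaving out a library 0 to 6. For KO over flox on HFSC, 0 were called, with 1 by DESeq2 and 0 to 0 on leaving out a library. For HFSC over chow in flox, 0 were called, with 3 by voom and 0 to 0 on leaving out a library. For the interaction, 0 were called, with 3 by DESeq2, 9 by voom, 1 without the filter, 0 with the replicate block and 0 to 5 on leaving out a library. For the diet averaged over genotypes, 3 were called, all higher, with 0 under library totals, 1 with the replicate block (Dgat2, lower) and 0 to 4 on leaving out a library. The cause of these changes was not tested.

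Libraries with the same replicate number were not alike by 1 measure. Over 16 such pairs, the correlation of deviations from the group means ran from -0.341 to 0.109, with 1 pair over 0.1. With group means of 3 or 4 libraries this measure cannot exclude a shared batch, and the labels name none. Signs turned only for differences that were not called. For HFSC over chow in flox, voom gave -0.38 for Scd1, -0.42 for Fasn, 0.18 for Acacb, -0.22 for Elovl6 and -0.21 for Acly, and library totals gave -0.11 for Fasn and -0.20 for Acly. On leaving out a library the ranges there were -0.078 to 0.54 for Scd1, -0.15 to 0.39 for Fasn, -0.23 to 0.29 for Acacb, -0.027 to 0.52 for Elovl6, -0.47 to 0.26 for Dgat2, -0.21 to 0.15 for Acly and -0.13 to 0.96 for Me1. The Scd2 interaction was 0.30 with library totals, 0.042 with the replicate block and -0.27 to 0.10 on leaving out a library. For KO over flox on HFSC those ranges were -0.18 to 0.10 for Acacb, -0.24 to 0.21 for Elovl6 and -0.034 to 0.29 for Dgat2, and for Acaca in the averaged diet comparison -0.060 to 0.0057. With 3 or 4 libraries a group, differences of the size seen for Acaca, or for Elovl6 at 20 to 100 counts, are near the limit of what the data resolve.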

Other observations

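Of the genes most like Scd1 across the 13 libraries, all 5 were called higher on HFSC than on chow in KO by edgeR, with log2 fold changes of 1.61 for Cidec, 1.15 for Cdo1, 1.24 for Crispld1, 1.11 for Chodl and 1.43 for Grap; since they were chosen for likeness to Scd1 in the same libraries, this is a description. Thrsp, a nuclear protein of lipogenic tissue that was chosen after its values were seen, stood between 23.2 and 26.9 CPM in HFSC KO and between 9.48 and 16.7 CPM in chow KO, and was not called (log2 difference 1.01 ± 0.40, edgeR adjusted p = 0.0749). Scd3 and Scd4, the other stearoyl-CoA desaturases of mouse, had 88 and 48 counts over all 13 libraries.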
